A study of Homo sapiens with 6 samples.

Results

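Metalloproteinases of the MMP, ADAM and ADAMTS families and their inhibitors were examined in RNA from Huh-7 cells, an established line from a human hepatocellular carcinoma. Members were taken by name: a gene of the deposited count table was a member when its symbol opened with MMP, ADAM or ADAMTS and went on with a number, or when it was one of the inhibitors TIMP1 to TIMP4 and RECK. This took 68 of the 20332 genes in the table, namely 23 MMP genes, 20 ADAM genes, 19 ADAMTS genes, 5 inhibitors and MMP24OS, a gene on the strand opposite MMP24.

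The study sequenced 3 RNA samples of negative control cells, labelled wild type, and 3 of cells that overexpress RAC3, a small GTPase. RAC3 was overexpressed stably, from a lentivirus, and the comparison asks which transcripts differ in level once it is. The sources used here do not give the promoter that drives RAC3, what the control cells received, or whether each line is 1 clone or a pool. The samples are called independent, but nothing says that they came from separate cultures, so the p-values measure the spread between these samples, part of which may be technical.

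Total counts were 14368764, 15269997 and 18199888 in control replicates 1, 2 and 3, and 17332318, 16225766 and 13855762 in RAC3 replicates 1, 2 and 3. A count of 0 allows up to 3 counts, which is 0.167 to 0.215 CPM (counts put on the scale of 1 library size) depending on the sample, and this limit covers counting error only. RAC3 itself (ENSG00000169750) was at 35.6, 31.4 and 32.8 TMM-normalized CPM in the control replicates and at 233, 239.6 and 225 in the RAC3 replicates. All 3 RAC3 samples lay far above all 3 controls, with a log2 fold change of 2.81 (SE 0.0574; adjusted p = 9.64e-18 from the quasi-likelihood test of edgeR, adjusted by Benjamini-Hochberg over all genes tested). The genotype labels of RAC3 samples 2 and 3 name RAC4 and RAC5, and these samples were kept with RAC3 by their titles and this level.

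The line was checked against lists of cell type markers. All 10 hepatocyte markers were expressed and tested, the most abundant was ALB, and their summed level was 5534, 5585 and 5619 CPM in the controls and 5604, 5081 and 5223 CPM with RAC3, with 3 of them higher and 3 lower at an adjusted p below 0.05. Over all genes tested 13.3% were higher and 15.3% lower at that threshold, 28.5% in all. Of 6 fibroblast or stellate cell markers 4 were tested, LUM was the most abundant, the sum was 191, 197 and 206 CPM in the controls and 221, 209.8 and 221 CPM with RAC3, and ACTA2 and DCN were under 1 CPM in every sample. LUM rose, from a mean of 155 ± 8.36 to 181 ± 7.32 CPM, and COL1A1 fell, from 38.3 ± 1.56 to 32.95 ± 0.546 CPM (SD). PDGFRB was at 3.51, 2.93 and 2.34 CPM in the controls and 1.63, 2.00 and 1.70 CPM with RAC3, without overlap, a log2 fold change of -0.71 that passed the study's threshold, a fold above 1.5 at an unadjusted p below 0.05, but not an adjusted p of 0.05 (adjusted p = 0.0573, edgeR). Of 6 leukocyte markers CD14 was the most abundant, the sum was 43.3, 48.2 and 50.7 CPM in the controls and 40.9, 41.96 and 42.1 CPM with RAC3, PTPRC and CD3E were under 1 CPM and MS4A1 had 0 counts in all 6 samples. CD68 rose, from a mean of 5.73 ± 1.03 to 7.89 ± 0.863 CPM, and CD14 fell, from 39.6 ± 4.01 to 30.8 ± 1.78 CPM (SD). The 4 endothelial markers, led by PECAM1, summed to 3.15, 2.53 and 3.01 CPM in the controls and 3.21, 3.76 and 2.70 CPM with RAC3, and VWF, CDH5 and KDR were under 1 CPM in every sample. The 4 cholangiocyte markers, led by KRT19, summed to 968, 952 and 971 CPM in the controls and 774, 832 and 827 CPM with RAC3, and 2 of them, KRT19 and SOX9, fell. KRT7 of this list had 33 counts in RAC3 replicate 2 and 1 to 5 in the other samples, and CD44, an adhesion protein of the lists of related genes, had 52 there and 0 to 3 elsewhere, so this library stood apart in these genes, which were named after their values were seen. Without RAC3 replicate 2 the log2 fold change was 0.93 for MMP24, 1.13 for ADAMTS5, -0.59 for MMP11 and -0.63 for ADAMTS19, and these 4 members passed both thresholds used here. The part of these marker differences in the metalloproteinase values was not tested, and in bulk RNA fewer cells of a kind and less RNA per cell cannot be told apart.

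Metalloproteinases cut proteins with a zinc ion held in the active site. MMPs cleave components of the extracellular matrix and proteins at the cell surface, ADAMs mostly release the outer parts of membrane proteins, and ADAMTS enzymes are secreted and act on proteoglycans, procollagens and other matrix proteins. TIMPs bind and block the active enzymes, RECK is a membrane-anchored inhibitor, and in the liver the balance of these proteins is known for its part in fibrosis and in invasion by hepatocellular carcinoma.

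With RAC3, MMP24 rose from a mean of 11.9 ± 1.24 to 24.4 ± 4.25 CPM (SD, n = 3 each) and ADAMTS5 from 2.55 ± 0.270 to 5.33 ± 0.631 CPM. MMP11 fell from 14.3 ± 0.690 to 9.24 ± 0.394 CPM and ADAMTS19 from 6.61 ± 0.485 to 4.32 ± 0.0968 CPM. Smaller changes in MMP15, MMP16, MMP17, ADAMTS1, ADAMTS12 and ADAM10 also passed the test, no inhibitor did, and the classical collagenases and gelatinases had 0 counts in every sample. Of the 68 members, 32 passed the filter on low counts and were tested, and 10 of these had an adjusted p below 0.05 (31.25%), against 28.5% of the 12941 genes tested. MMP24, ADAMTS5, ADAMTS1, MMP16 and ADAM10 were higher with RAC3, 5 of 32 members against 13.3% of all genes, and MMP11, ADAMTS19, MMP17, MMP15 and ADAMTS12 were lower, 5 of 32 against 15.3% of all genes. At the study's own threshold, a fold change above 1.5 with an unadjusted p below 0.05, 4 members were called (12.5%), against 4.68% of all genes. MMP24 and ADAMTS5 rose (1.68% of all genes rose past this threshold), while MMP11 and ADAMTS19 fell (2.99% fell past it). These calls are those of the fit used here. The paper reported fewer called genes in all, with fewer that fell and slightly more that rose. The 3 control values and the 3 RAC3 values did not overlap for 17 of the 32 members (53.1%), and they did not overlap for 42.5% of all genes. The fitted log2 fold change was above 0 for 16 members and below 0 for 16, with a median of 0.00025 beside 0.0036 over all genes tested. With libraries scaled by their size alone, which moves every gene alike, the members' median was 0.056 beside 0.060 over all genes, and with the trend in transcript GC content removed it was -0.017 beside 0.0025. With library size alone the calls over all genes moved from 1717 higher and 1974 lower to 2613 higher and 1381 lower, and those among the members from 5 and 5 to 7 higher and 5 lower. At the study's threshold the same scaling moved the calls from 218 higher and 387 lower to 296 higher and 315 lower over all genes, and from 2 and 2 to 2 higher and 0 lower among the members, since MMP11 and ADAMTS19 then missed the fold. By family, 5 of 8 tested MMP genes, 1 of 8 ADAM genes, 4 of 10 ADAMTS genes and 0 of 5 inhibitors had an adjusted p below 0.05, beside 28.5% of all genes. These family counts moved when 1 sample was left out. Without RAC3 replicate 3, MMP16 and MMP17 missed the threshold, while 2735 of 13112 genes in all passed it. ADAM10 missed it without control replicate 1 or 2 and without RAC3 replicate 1 or 2, and TIMP1 passed it without control replicate 3. Without control replicate 2 the members called higher were 3 in place of 5, since MMP16 and ADAM10 missed the threshold, while over all genes the calls higher were 1217 of 13140 in place of 1717 of 12941. For the inhibitors 0 also had an unadjusted p below 0.05 with edgeR, and DESeq2 called 0. With 3 samples against 3, an exact permutation test of a single value cannot go below p = 0.10, so calls rest on the fit across all genes.

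**Figure D1:**
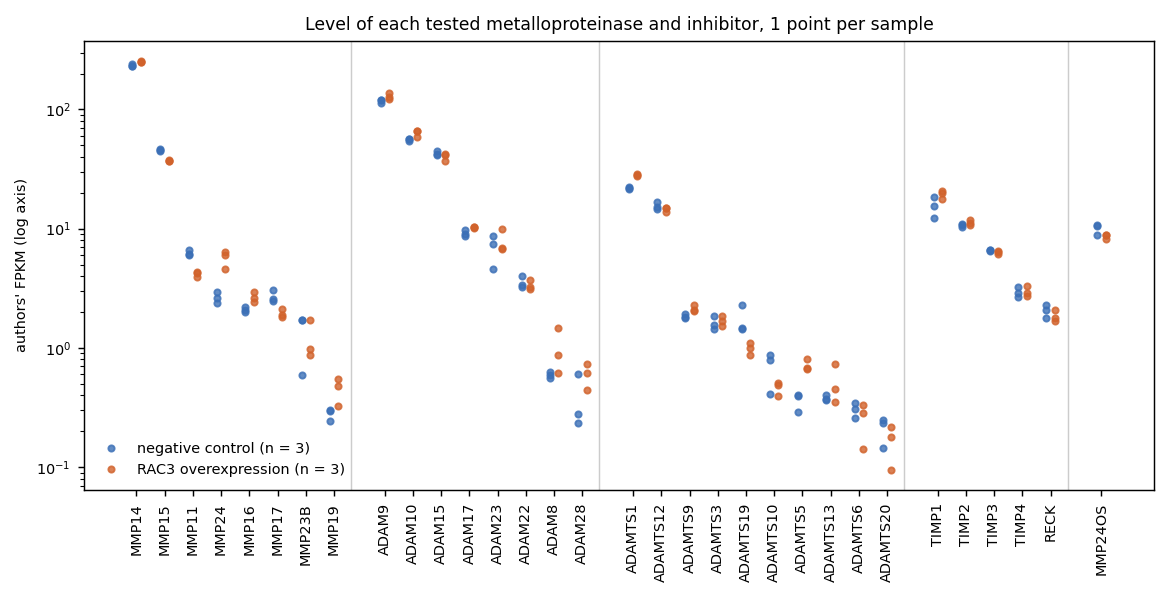
Level of each of the 32 tested members in every sample, in the authors' FPKM on a log axis, with blue points for the 3 control samples and orange points for the 3 RAC3 samples, grouped by family. MMP14, at a mean of 244 FPKM, and ADAM9, at 124, stand above all other members, and points near the bottom rest on few counts.

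Levels per transcript length were compared on the authors' FPKM. MMP14 led with a mean of 244 FPKM over the 6 samples, and it made up 79.8, 78.9 and 79.5% of the summed MMP FPKM in the control replicates and 83.1, 82.3 and 82.1% in the RAC3 replicates. ADAM9 came next at 124 FPKM, between 48.6% and 52.7% of the summed ADAM FPKM in any sample. ADAM10 (59.6), ADAM15 (41.6), MMP15 (41.3), ADAMTS1 (25.1), TIMP1 (17.4), ADAMTS12 (15.1) and TIMP2 (10.96) followed. Neighbours in this order whose ranges over the samples overlap are ADAM15 with MMP15 and TIMP1 with ADAMTS12. In mean FPKM MMP15 was above ADAM15 in the controls (45.6 and 42.9) and below it with RAC3 (37.1 and 40.2). TIMP1 was above ADAMTS12 in control replicates 2 and 3 and in all 3 RAC3 samples, and below it in control replicate 1 (12.3 and 14.7 FPKM). Its mean was thus just below that of ADAMTS12 in the controls (15.4 and 15.6 FPKM) and above it with RAC3 (19.4 and 14.6 FPKM). For ADAMTS12 the length implied by counts and FPKM ran from 5.99 to 7.29 kb between samples. The part of this in the close order of the controls was not tested. The RNA of the MMP family was thus mostly that of 1 membrane enzyme, and ADAMTS1 with ADAMTS12 held between 82.3% and 86.3% of the summed ADAMTS FPKM. The family sums overlapped between the groups. The summed MMP level was 932, 895 and 897 CPM in the controls and 898, 931 and 912 CPM with RAC3. The summed ADAM level was 817, 830.1 and 848 CPM against 897, 847 and 862 CPM, with the lowest RAC3 value below the highest control. The ADAMTS sum was 253, 258 and 254 CPM against 272, 253 and 264 CPM, and the inhibitor sum was 91.7, 95.6 and 93.6 CPM against 94.8, 92.3 and 89.7 CPM, each with overlapping groups.

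MMP14, MMP15, MMP16, MMP17, MMP24 and MMP25 are the membrane-type MMPs, which sit on the cell surface, the first 3 and MMP24 by a membrane-spanning stretch and the other 2 by a lipid anchor. Of these, 5 were tested and 4 had an adjusted p below 0.05, 2 in each direction, beside 28.5% of all genes (13.3% higher and 15.3% lower), and MMP25 had at most 6 counts in a sample. Without RAC3 replicate 3, MMP16 and MMP17 missed this threshold, while 2735 of 13112 genes in all passed it. MMP24 (ENSG00000125966), known mainly from the nervous system and able to cut N-cadherin, was at 10.7, 11.8 and 13.2 CPM in the control replicates and 19.5, 27.5 and 26.03 CPM in the RAC3 replicates. Every RAC3 sample was above every control, with RAC3 replicate 1 the lowest of its group. The means were 11.9 ± 1.24 and 24.4 ± 4.25 CPM (SD, n = 3 each), on 149, 177 and 236 counts in the controls and 347, 453 and 367 with RAC3. MMP24 rose with a log2 fold change of 1.03 (SE 0.124; adjusted p = 6.70e-06, edgeR). Both calls held under all 13 alternative settings, over which the log2 fold change ran from 0.93 to 1.19. The highest value was the one with the GC trend removed, and MMP24 transcripts hold 60.6% GC. MMP24 and MMP24OS share 799 exonic bases on opposite strands, 18.1% of those of MMP24 and 14.5% of those of MMP24OS, and whether counting kept the strands apart is not given in the sources used here. MMP24OS (ENSG00000126005) was at 13.7, 13.7 and 12.8 CPM in the controls and 11.3, 11.6 and 11.1 CPM with RAC3. Its groups did not overlap and lay the other way round from those of MMP24, with a log2 fold change of -0.24 that did not pass (adjusted p = 0.118, edgeR).

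MMP15 (ENSG00000102996), a membrane enzyme close in structure to MMP14, was at 190.2, 191 and 185 CPM in the controls and 145, 147 and 151 CPM with RAC3. The groups lay well apart, each within a few CPM, with means of 189 ± 3.19 and 148 ± 2.65 CPM (SD). MMP15 fell, with a log2 fold change of -0.35 (SE 0.0447; adjusted p = 1.05e-05, edgeR's quasi-likelihood test). In FPKM it went from 45.6 ± 0.682 to 37.1 ± 0.563. With the GC trend removed the log2 fold change was -0.18, still past the adjusted threshold (adjusted p 2.40e-11 to 0.00295 over the 13 alternatives). Its transcripts hold 61.3% GC, above the median of 49.9% over the genes tested, and the part of GC content in the difference was not tested further.

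MMP17 (ENSG00000198598), held by a lipid anchor, was at 5.87, 5.79 and 7.03 CPM in the controls and 3.88, 4.80 and 4.33 CPM with RAC3. The groups did not overlap, and control replicate 3 was the highest sample. MMP17 fell with a log2 fold change of -0.53 (SE 0.178; adjusted p = 0.0314, edgeR), but this call depended on the setting. It was lost with DESeq2 (-0.53), with the GC trend removed (-0.30), without control replicate 3 (-0.43), without RAC3 replicate 1 (-0.45) and without RAC3 replicate 3 (-0.53), with adjusted p from 0.0238 to 0.255 over the 13 alternatives. Without control replicate 2 (-0.59) or RAC3 replicate 2 (-0.61) MMP17 also passed the study's fold threshold. MMP17 transcripts hold 66.4% GC.

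MMP16 (ENSG00000156103), which like MMP14 can activate the MMP2 proenzyme, was at 23.9, 24.5 and 25.6 CPM in the controls and 29.4, 27.7 and 33.1 CPM with RAC3. The lowest RAC3 sample, replicate 2, was above the highest control, and RAC3 replicate 3 was the highest. MMP16 rose with a log2 fold change of 0.28 (SE 0.0835; adjusted p = 0.0169, edgeR). The call was lost with the GC trend removed (0.17), without control replicate 2 (0.27) and without RAC3 replicate 3 (0.21), with adjusted p from 0.00497 to 0.143 over the 13 alternatives. MMP14 (ENSG00000157227), which cleaves fibrillar collagen and activates the MMP2 proenzyme together with TIMP2, was at 682, 644 and 649.7 CPM in the controls and 687, 711 and 686 CPM with RAC3. The lowest RAC3 value lay just above the highest control, so the groups did not overlap. The log2 fold change of 0.077 (SE 0.0384) did not pass (adjusted p = 0.143, edgeR), and means in FPKM were 236 ± 5.81 and 252 ± 2.39. It passed with library size alone (0.13) and with the GC trend removed (0.23), with adjusted p from 2.39e-05 to 0.441 over the alternatives.

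Among the secreted MMPs, MMP11 (ENSG00000099953), or stromelysin-3, is made active inside the cell by furin and is known from the stroma of tumours. It was at 15.04, 13.7 and 14.1 CPM in the controls and 9.57, 8.81 and 9.36 CPM with RAC3. All RAC3 samples were under all controls, and the values within a group lay close together, with means of 14.3 ± 0.690 and 9.24 ± 0.394 CPM (SD). MMP11 fell with a log2 fold change of -0.62 (SE 0.115; adjusted p = 0.000480, edgeR). The fold stood close to the threshold of 1.5: it no longer passed it with library size alone (-0.57) or with the GC trend removed (-0.42), while the adjusted p stayed below 0.05 in all 13 alternatives, between 5.96e-05 and 0.0115. MMP11 transcripts hold 63.4% GC and share 218 exonic bases, 4.21% of theirs, with CHCHD10 on the opposite strand. The 2 other tested MMPs rest on few counts. MMP19, a broad matrix protease, had 14, 12 and 18 counts in the controls and 29, 17 and 22 with RAC3, a log2 fold change of 0.58 that did not pass (adjusted p = 0.245, edgeR). MMP23B, which is made as a membrane protein, had 29, 34 and 14 counts in the controls and 22, 28 and 11 with RAC3, a log2 fold change of -0.42 (adjusted p = 0.474, edgeR), and it has a near-identical copy, MMP23A, that is not in the table. MMP19 and MMP23B fall outside the rule for named genes and were chosen after their values were seen.

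The classical collagenases, the gelatinases, the matrilysins and the stromelysins MMP3 and MMP10 were near or at 0, unlike MMP14, which also cleaves collagen, and MMP11. Counts were 0 in all 6 samples for the collagenases MMP1, MMP8 and MMP13, the gelatinases MMP2 and MMP9, the stromelysin MMP3 and the matrilysin MMP26, as well as for MMP20 and MMP27. MMP7, the other matrilysin, had 4 counts in control replicate 1, 2 in RAC3 replicate 2 and 0 elsewhere. MMP10, another stromelysin, had 1 count in each of RAC3 replicates 2 and 3. At this depth no difference in these genes was detectable. On chromosome 11, 9 of the MMP genes lie within 435 kb: MMP7, MMP20, MMP27, MMP8, MMP10, MMP1, MMP3, MMP12 and MMP13 in GENCODE 29. Of these 9 members, 6 had 0 counts in every sample and all 9 together had 10 counts over the 6 samples. These members were named because of their function and place, after their counts were seen.

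Of the 20 ADAM genes, 8 were tested, and 1 had an adjusted p below 0.05, beside 28.5% of all genes. ADAM10 (ENSG00000137845), which releases the outer parts of Notch receptors and of the amyloid precursor protein, was at 129, 128 and 141 CPM in the controls and 154, 148 and 141 CPM with RAC3. The groups overlapped, since control replicate 3 was level with RAC3 replicate 3, and both other RAC3 samples were above all controls. ADAM10 rose with a log2 fold change of 0.15 (SE 0.0527; adjusted p = 0.0354, edgeR), the smallest change of any member called. Its call was lost in 6 of the 13 alternatives: with the replicate number as a block (0.15), with the GC trend removed (0.044), and without control replicate 1 (0.13), control replicate 2 (0.12), RAC3 replicate 1 (0.12) or RAC3 replicate 2 (0.15). The adjusted p ran from 0.00580 to 0.530 over these alternatives, and the direction was the same in all 13.

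ADAM9 (ENSG00000168615), a sheddase of growth factor precursors and the most abundant ADAM by FPKM, was at 480.0, 499 and 499 CPM in the controls and 555, 500.5 and 516 CPM with RAC3. RAC3 replicate 2 lay just above the highest control, so the groups did not overlap, and the log2 fold change of 0.088 (SE 0.0428) did not pass (adjusted p = 0.132, edgeR). It passed with library size alone (0.15) and turned to -0.088 with the GC trend removed, with adjusted p from 0.0162 to 0.454 over the alternatives. ADAM9 transcripts hold 38.6% GC. ADAM15 (ENSG00000143537), an ADAM with an integrin-binding site, was at 130.1, 120.2 and 119.6 CPM in the controls and 102, 115 and 117 CPM with RAC3. Every RAC3 sample was below every control, with RAC3 replicate 1 the lowest. Its log2 fold change of -0.15 (SE 0.0582) did not pass (adjusted p = 0.0675, edgeR). It passed with no filter on low counts (-0.15) and turned to 0.043 with the GC trend removed, with adjusted p from 0.0437 to 0.541, and its transcripts hold 62.5% GC.

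ADAM17 (ENSG00000151694), the enzyme that releases tumour necrosis factor and several ligands of the epidermal growth factor receptor, was at 30.9, 32.6 and 37.5 CPM in the controls and 38.5, 33.4 and 35.04 CPM with RAC3. Control replicate 3 was above the lower RAC3 samples, and the log2 fold change of 0.078 did not pass (adjusted p = 0.515, edgeR). With the GC trend removed it was -0.043, and 12.3% of its exonic bases are shared with IAH1 on the opposite strand. ADAM23 (ENSG00000114948), which has no protease activity and binds LGI proteins, was at 19.7, 27.2 and 26.1 CPM in the controls and 25.5, 23.9 and 27.1 CPM with RAC3. Control replicate 1 was the lowest sample and the groups overlapped, with a log2 fold change of 0.060 (adjusted p = 0.705, edgeR), and -0.068 without control replicate 1. The remaining tested ADAM genes, ADAM8, ADAM22 and ADAM28, had log2 fold changes of 0.39, -0.15 and 0.52 and did not pass. ADAM8 went past the study's fold threshold with the GC trend removed (0.62), and these 3 genes were named after their values were seen. ADAM2, ADAM7, ADAM12, ADAM20 and ADAM30 had 0 counts in all samples.

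Of the 19 ADAMTS genes, 10 were tested and 4 had an adjusted p below 0.05, 2 higher and 2 lower, beside 28.5% of all genes. ADAMTS5 (ENSG00000154736), a protease of aggrecan and versican, was at 2.87, 2.40 and 2.40 CPM in the controls and 5.18, 4.80 and 6.03 CPM with RAC3. The lowest RAC3 sample was well above the highest control. The means were 2.55 ± 0.270 and 5.33 ± 0.631 CPM (SD, n = 3 each), from 40, 36 and 43 counts in the controls and 92, 79 and 85 with RAC3. ADAMTS5 rose with a log2 fold change of 1.06 (SE 0.209; adjusted p = 0.000856, edgeR), and its log2 fold change lay between 0.92 and 1.14 in the 13 alternatives, with both calls kept in each. ADAMTS1 (ENSG00000154734), which cleaves the same class of proteoglycans, was at 104, 107 and 103 CPM in the controls and 131, 123 and 129 CPM with RAC3. The groups did not overlap, and the values in each lay within 10 CPM of each other. ADAMTS1 rose with a log2 fold change of 0.29 (SE 0.0497; adjusted p = 0.000235, edgeR) and from 21.8 ± 0.332 to 28.4 ± 0.552 in FPKM. ADAMTS1 and ADAMTS5 are neighbours on chromosome 21, 72.5 kb apart in GENCODE 29 with 0 genes of the table between them. Of the 7 ADAMTS genes grouped as proteoglycan-cleaving, 4 were tested, and the other tested ones were ADAMTS9 and ADAMTS20. ADAMTS9 (ENSG00000163638) was at 13.04, 14.5 and 13.8 CPM in the controls and 16.8, 14.999 and 14.5 CPM with RAC3. The lowest RAC3 value, in replicate 3, lay just above the highest control, so the groups did not overlap. Its log2 fold change of 0.17 did not pass (adjusted p = 0.257, edgeR).

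ADAMTS19 (ENSG00000145808), an ADAMTS whose substrates are little known, was at 6.81, 6.06 and 6.97 CPM in the controls and 4.28, 4.43 and 4.26 CPM with RAC3. All 3 RAC3 values lay close together and under all controls. ADAMTS19 fell with a log2 fold change of -0.61 (SE 0.168; adjusted p = 0.0102, edgeR). The change dropped below a fold of 1.5 with library size alone (-0.56) and without control replicate 3 (-0.58), while the adjusted p stayed below 0.05 in all alternatives, from 0.00596 to 0.0392. ADAMTS12 (ENSG00000151388), which cleaves cartilage oligomeric matrix protein, was at 111, 111 and 108 CPM in the controls and 98.3, 88.4 and 94.1 CPM with RAC3. All RAC3 samples were lower than all controls, with RAC3 replicate 2 the lowest. ADAMTS12 fell with a log2 fold change of -0.23 (SE 0.0535; adjusted p = 0.00336, edgeR). ADAMTS3 (ENSG00000156140), which processes procollagen and the growth factor VEGFC, was at 9.17, 9.86 and 11.7 CPM in the controls and 10.2, 11.4 and 9.36 CPM with RAC3. Its groups overlapped fully, with a log2 fold change of 0.0065 (adjusted p = 0.975, edgeR). ADAMTS13, the protease of von Willebrand factor, had 24, 20 and 31 counts in the controls and 38, 26 and 22 with RAC3, with overlapping groups and an adjusted p of 0.763 (edgeR). ADAMTS6, ADAMTS10 and ADAMTS20 had log2 fold changes of -0.32, -0.34 and -0.14 on few counts and did not pass, and like ADAMTS13 they were named after their values were seen. ADAMTS2 and ADAMTS8 had 0 counts in all samples.

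**Figure D2:**
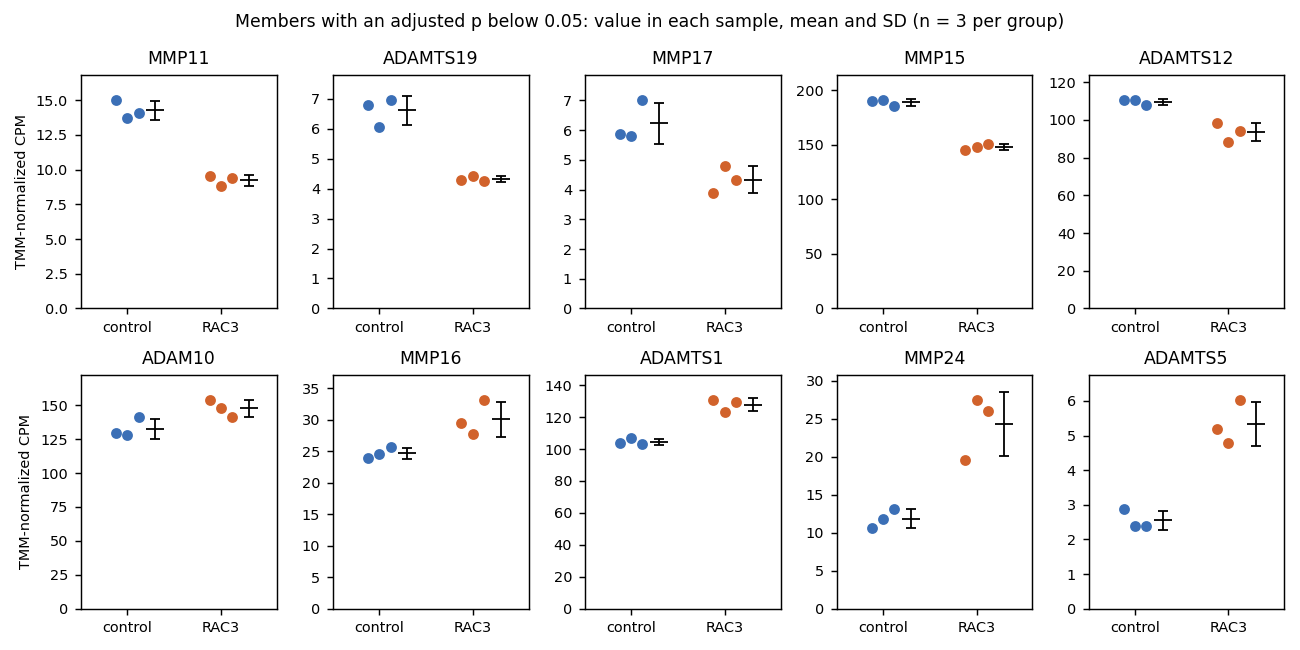
TMM-normalized CPM of the 10 members with an adjusted p below 0.05, 1 panel a gene, with a point for each control (blue) and RAC3 (orange) sample and the mean with SD (n = 3 per group) beside them, on axes that start at 0. The groups are apart in 9 panels, and in the ADAM10 panel control replicate 3 reaches the lowest RAC3 sample at 141 CPM.

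None of the 5 inhibitors passed the test in the reported fit. TIMP1 (ENSG00000102265), which is secreted and blocks most MMPs and ADAM10, was at 10.1, 12.4 and 14.7 CPM in the controls and 15.1, 15.7 and 13.8 CPM with RAC3. Control replicate 3 lay within the RAC3 range, so the groups overlapped, and the log2 fold change of 0.25 (SE 0.126) gave an adjusted p of 0.140 with edgeR. TIMP1 passed without control replicate 3 (0.40) and with the GC trend removed (0.38), with adjusted p from 0.0359 to 0.494 over the alternatives. TIMP2 (ENSG00000035862), the inhibitor that also takes part in MMP2 activation by MMP14, was at 38.8, 38.2 and 36.2 CPM in the controls and 38.9, 37.5 and 36.03 CPM with RAC3. Its groups covered the same range, with a log2 fold change of -0.0060 (SE 0.0688; adjusted p = 0.959, edgeR) that turned to 0.051 with library size alone. TIMP3 (ENSG00000100234), which binds the matrix and blocks ADAM17 and several ADAMTS enzymes besides MMPs, was at 31.2, 30.8 and 30.2 CPM in the controls and 28.8, 27.5 and 29.2 CPM with RAC3. All RAC3 values were below all controls, and the log2 fold change of -0.11 (SE 0.0734) did not pass (adjusted p = 0.285, edgeR). TIMP4 (ENSG00000157150) was low, at 3.58, 3.93 and 3.23 CPM in the controls and 3.15, 3.89 and 3.40 CPM with RAC3, with overlapping groups and a log2 fold change of -0.038 (adjusted p = 0.915, edgeR), and 10.3% of its exonic bases are shared with SYN2 on the opposite strand. RECK (ENSG00000122707) was at 8.02, 10.3 and 9.31 CPM in the controls and 8.89, 7.71 and 7.31 CPM with RAC3. RAC3 replicate 1 lay inside the control range, and the log2 fold change of -0.21 (SE 0.143) did not pass (adjusted p = 0.3001, edgeR).

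**Figure D3:**
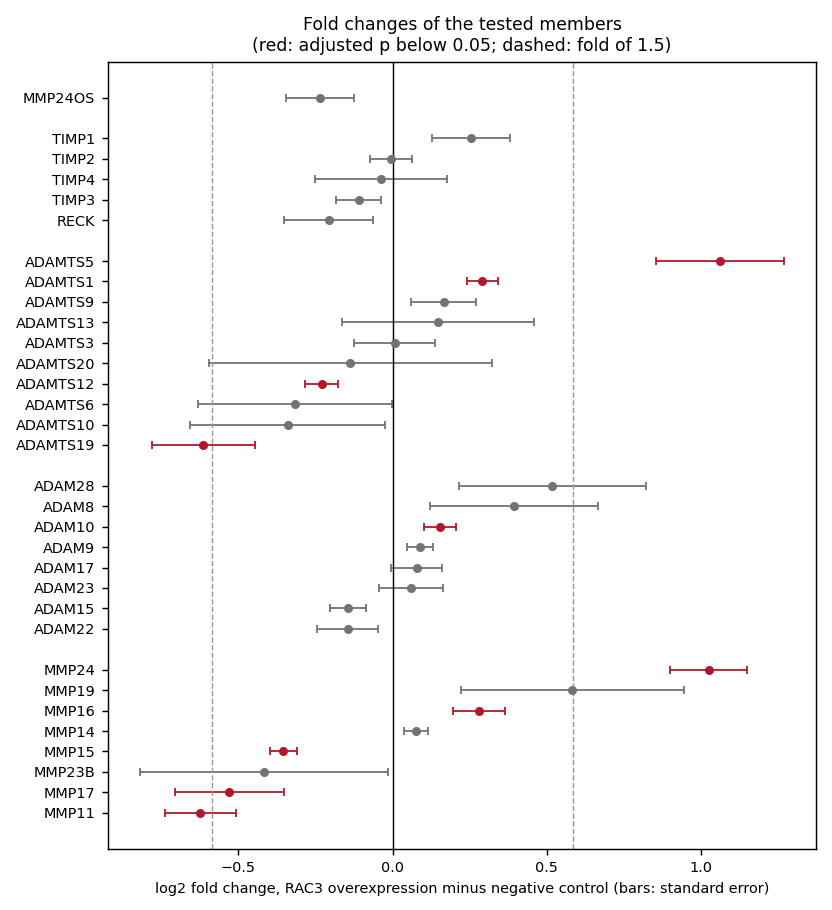
Log2 fold change of each of the 32 tested members, RAC3 overexpression minus negative control, with bars of 1 standard error, red where the adjusted p was below 0.05, and dashed lines at a fold of 1.5. MMP24 at 1.03 and ADAMTS5 at 1.06 stand farthest right and MMP11 at -0.62 farthest left, and the widest bars belong to genes with few counts.

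The depth of each member set what could be seen. Of the 36 members not tested, 15 were MMP, 12 ADAM and 9 ADAMTS genes, 16 of them with 0 counts in all samples and 20 with at least 1 count, the highest being 13 counts in a sample. Of the 32 tested members, 31 exceeded the filter's cutoff of 0.635 CPM in all 6 samples and ADAMTS20 did in 3. For the 8 tested members with a mean under 50 counts, the standard error of the log2 fold change was 0.272 to 0.458, whereas it was at most 0.215 for the others. Of the 8 with few counts, 0 had an adjusted p below 0.05, beside 28.5% of all genes. The share among all genes with as few counts is not given here.

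The promoters of members that changed past the study's fold threshold are shown because these are the members the results turn on, with the AP-1 motif TGANTCA (N is any base, and the pattern is its own reverse complement, so both strands were searched), since AP-1 factors are known regulators of several MMP genes. Sequences are from RefSeq on GRCh38.p14, 250 bases before to 50 after a gene's start, written 5′ to 3′ on the gene's strand. Of the 68 members 41 had an entry, and 4 of these held the motif, namely ADAMTS12, MMP7, MMP10 and MMP20, while over all 35116 promoters 2707 (7.71%) held it. Of the 23 matched members that were tested, 1 held it. The promoters of MMP24 (chr20:35226440-35226739, plus strand), MMP11 (chr22:23772599-23772898, plus strand) and ADAMTS19 (chr5:129460048-129460347, plus strand) had no match in this window, and ADAMTS5 had no entry.
MMP24: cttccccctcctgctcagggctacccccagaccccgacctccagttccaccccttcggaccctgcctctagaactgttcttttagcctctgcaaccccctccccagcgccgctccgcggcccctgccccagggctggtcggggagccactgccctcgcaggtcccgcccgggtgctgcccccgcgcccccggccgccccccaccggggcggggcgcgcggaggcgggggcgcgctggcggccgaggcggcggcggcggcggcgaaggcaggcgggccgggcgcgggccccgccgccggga
MMP11: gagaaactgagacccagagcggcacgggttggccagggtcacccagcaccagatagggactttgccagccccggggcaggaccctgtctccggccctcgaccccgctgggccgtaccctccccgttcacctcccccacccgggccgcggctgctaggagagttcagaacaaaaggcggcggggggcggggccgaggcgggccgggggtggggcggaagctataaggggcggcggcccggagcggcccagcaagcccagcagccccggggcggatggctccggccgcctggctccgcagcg
ADAMTS19: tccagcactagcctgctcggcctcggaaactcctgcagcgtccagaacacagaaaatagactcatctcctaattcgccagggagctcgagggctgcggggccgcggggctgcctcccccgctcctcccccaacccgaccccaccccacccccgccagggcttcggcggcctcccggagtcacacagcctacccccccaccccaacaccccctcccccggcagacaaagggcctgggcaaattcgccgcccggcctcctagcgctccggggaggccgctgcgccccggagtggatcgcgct
ADAMTS12, the tested member with the motif, is shown with MMP10, a stromelysin with the motif and almost no counts, and capitals mark the match. It began 84 bases before the start in ADAMTS12 (chr5:33891941-33892240, minus strand) and 67 bases before it in MMP10 (chr11:102780579-102780878, minus strand).
ADAMTS12: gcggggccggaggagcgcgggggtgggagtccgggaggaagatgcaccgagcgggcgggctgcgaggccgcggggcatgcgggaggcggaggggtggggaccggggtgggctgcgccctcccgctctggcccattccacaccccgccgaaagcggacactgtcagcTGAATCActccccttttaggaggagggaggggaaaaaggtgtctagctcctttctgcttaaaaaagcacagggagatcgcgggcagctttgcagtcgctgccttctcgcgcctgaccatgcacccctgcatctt
MMP10: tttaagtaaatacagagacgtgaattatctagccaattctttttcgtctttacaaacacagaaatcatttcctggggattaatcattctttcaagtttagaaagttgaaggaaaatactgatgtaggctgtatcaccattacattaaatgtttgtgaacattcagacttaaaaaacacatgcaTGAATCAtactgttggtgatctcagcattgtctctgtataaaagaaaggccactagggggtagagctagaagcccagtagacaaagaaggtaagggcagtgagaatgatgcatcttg
The windows of MMP24, MMP11, ADAMTS19 and ADAMTS12 hold 80%, 74.3%, 70.7% and 67% GC and that of MMP10 holds 36.3%. A match describes letters in this window only.

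**Figure D4:**
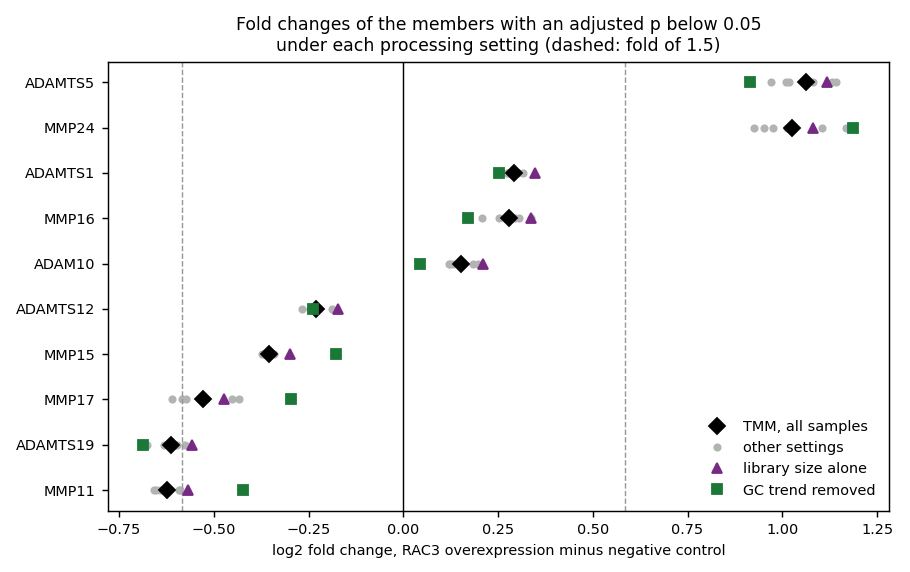
Log2 fold change of the 10 members with an adjusted p below 0.05 under the reported setting (black diamonds), with library size alone (purple triangles), with the GC trend removed (green squares) and under the other alternatives (grey points), with dashed lines at a fold of 1.5. MMP24 and ADAMTS5 stay beyond the line in every setting, MMP11 and ADAMTS19 lie close to it, and removing the GC trend moves MMP15 to -0.18 and ADAM10 to 0.044.

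Genes that work with the members were counted from 6 lists of 127 genes, of which 97 were tested. Of these 44 had an adjusted p below 0.05, 13 higher and 31 lower (45.4%), beside 28.5% of all genes, 13.3% higher and 15.3% lower. The median log2 fold change of the 97 genes was -0.12, beside 0.0036 for all genes. The lists were written with earlier results of these data known, and all genes were not matched to them by counts. The part of this choice and of depth in these shares was not tested. Among proteins that activate or carry the enzymes, 16 were tested and 5 passed, 1 higher and 4 lower, with a median of -0.062 that was 0.060 with the GC trend removed (0.0025 over all genes). HPN, which encodes the membrane protease hepsin, was at 93.3, 82.4 and 81.7 CPM in the controls and 48.5, 47.97 and 51.3 CPM with RAC3, and fell in every RAC3 sample (log2 fold change -0.80; adjusted p = 4.38e-08, edgeR). FURIN, the convertase that removes the propeptides of MMP11 and the membrane-type MMPs, fell from 777, 713 and 708 CPM to 623, 619 and 653 CPM, without overlap. PCSK5, a related convertase, rose from 9.03, 7.59 and 8.70 CPM to 11.99, 12.995 and 12.98 CPM, also without overlap. Among other inhibitors and clearance receptors, 6 of 12 passed, 1 higher and 5 lower, with a median of -0.24 (-0.21 with the GC trend removed). LRP1, a receptor that takes up proteases and their inhibitors, fell from 587, 559 and 521 CPM to 461, 449.8 and 464 CPM. TFPI2, a matrix-bound inhibitor of serine proteases, rose from 1.72, 1.53 and 1.67 CPM to 5.91, 4.55 and 4.82 CPM (log2 fold change 1.63; adjusted p = 4.14e-05, edgeR). The median of -0.058 over 8 other metzincins and ADAMTS-like proteins was 0.0099 with the GC trend removed, and 0 of the 8 had an adjusted p below 0.05 with edgeR, while 1 had an unadjusted p below it and DESeq2 called 0. Without control replicate 3 edgeR called 1, beside 3243 of 13061 genes in all.

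Of 26 tested membrane proteins that ADAMs or MMPs are known to shed, 13 passed, 5 higher and 8 lower, beside 28.5% of all genes, with a median of -0.071 (-0.053 with the GC trend removed). The growth factor precursors EREG and AREG, substrates of ADAM17, rose from 30.7, 29.3 and 30.7 to 49.2, 54.2 and 54.9 CPM and from 43.5, 43.2 and 50.6 to 69.2, 70.4 and 66.9 CPM. CDH2, the N-cadherin that ADAM10 and MMP24 can cut, rose from 43.6, 40.8 and 39.8 CPM to 63.3, 62.1 and 56.4 CPM (log2 fold change 0.56; adjusted p = 6.27e-06, edgeR). L1CAM, an adhesion protein shed by ADAM10, fell from 44.6, 43.02 and 40.98 CPM to 23.4, 21.6 and 24.8 CPM. Of 21 tested matrix substrates 15 passed, 5 higher and 10 lower, beside 28.5% of all genes, with a median of -0.20. With the GC trend removed 12 passed, beside 2616 of 12863 genes in all, and the median was -0.060. BGN, the small proteoglycan biglycan, fell from 7.74, 7.33 and 6.86 CPM to 3.49, 3.16 and 3.05 CPM, and FN1, the fibronectin gene, fell from 6401, 6073 and 5988 CPM to 4713, 4395 and 4596 CPM. TNC and COL1A2 rose, TNC from 2.01, 1.13 and 1.06 CPM to 2.70, 3.70 and 3.62 CPM and COL1A2 from 42.1, 46.02 and 43.4 CPM to 64.2, 63.1 and 59.2 CPM. Among 14 tested AP-1 and ETS factors 5 passed, 1 higher and 4 lower, beside 28.5% of all genes, with a median of -0.17. The median was -0.086 with the GC trend removed, and 8 passed without control replicate 1, beside 2863 of 13114 genes in all. JUNB had the largest fall of the 4, from 148, 117 and 114 CPM to 79.01, 90.4 and 84.7 CPM, with control replicate 1 the highest sample, and FOSL2 rose from 24.3, 19.8 and 19.4 CPM to 26.6, 27.02 and 28.2 CPM. None of these named genes had overlapping groups. They were picked by smallest p among genes with an adjusted p below 0.05, which favours groups that lie apart. Over all 97 related genes tested, the groups did not overlap for 53 (54.6%), beside 42.5% of all genes. 4 genes of the matrix list and AHSG are also cell type markers.

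**Figure D5:**
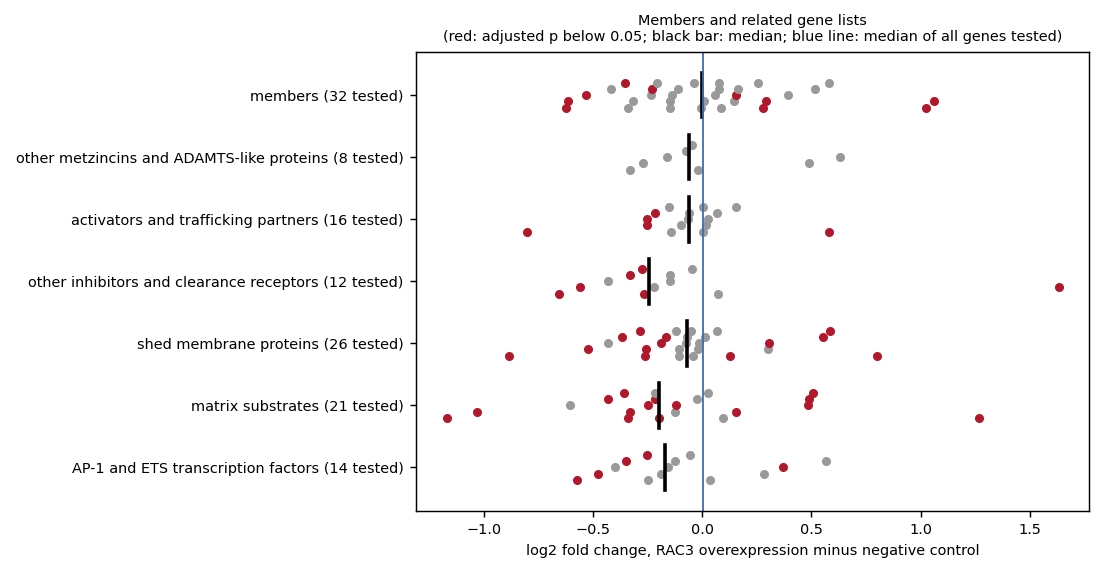
Log2 fold change of every tested gene of the members and of the 6 related lists, 1 point a gene, red where the adjusted p was below 0.05, with a black bar at each list's median and a blue line at the median of all genes tested, 0.0036. The members' median of 0.00025 lies on that line, and that of the other inhibitors, -0.24, lies farthest from it.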

How the data were processed

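Raw counts per gene and sample and FPKM values were deposited by the authors for 3 negative control and 3 RAC3 overexpression samples of Huh-7 RNA selected with oligo(dT). The submitters' processing notes name Bowtie2 2.2.8, HISAT2, StringTie 1.3.1 and DESeq2. Their roles, the genome build, the strandedness of counting and the lengths behind the authors' FPKM are not given in the sources used here. For some genes (ADAM23, ADAM28, ADAMTS12 and ADAMTS19 among them) the length implied by counts and FPKM differed between samples. Every test therefore used counts, and FPKM served for levels between genes.

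From the deposited counts, edgeR 4.0.16 (R 4.3.3, limma 3.58.1) was run as follows: filterByExpr with both groups (minimum count 10, a cutoff of 0.635 CPM), TMM scaling, and a two-sided quasi-likelihood F test on all 12941 genes kept, with Benjamini-Hochberg adjustment over them. Means and SD are of TMM-normalized CPM, and SE is that of the fitted log2 fold change. The biological coefficient of variation was 0.0533. Calls were a fold above 1.5 with an unadjusted p below 0.05, as in the study, or an adjusted p below 0.05. The steps were tested on simulated data, and the outcome of that is not given here.

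The members and the gene lists were chosen with earlier results of these data known. Named genes were RAC3, every member called by either rule, the 5 members of MMP, ADAM and ADAMTS with the highest mean FPKM, all inhibitors, and from each related list genes with an adjusted p below 0.05, at most 5 in each direction by smallest p, of which some are given. Alternatives were DESeq2 1.42.0, its size factors in edgeR, library size alone, no filter, at least 10 counts in every sample, replicate number as a block, removal of each library's trend in transcript GC content (lowess), a fold of 2, and leaving out each sample in turn. GC content, overlaps and neighbours were taken from GENCODE 29, in which all 68 members were found. Protein sequences were not analysed here.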

Additional observations from a re-analysis of the deposited data

How the results depend on the processing

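Under the 13 alternatives, 263 of 299 log2 fold changes of the 23 genes (RAC3 and 22 members) kept their direction and their side of the adjusted threshold, 14 lost it, 6 gained it and 16 reversed. The 4 members past the study's threshold were 2 with library size alone and 2 at a fold above 2. With the GC trend removed they were 3 higher and 1 lower in place of 2 and 2. They were 5 without control replicate 2, 3 without control replicate 3 (1 lower in place of 2) and 5 without RAC3 replicate 2. Over all genes the calls at the study's threshold were 605 of 12941 in the reported fit and 611 with library size alone. With the GC trend removed 447 of 12863 genes were called, 196 higher and 251 lower in place of 218 and 387. The calls over all genes were 623 of 13140 without control replicate 2, 660 of 13061 without control replicate 3 (434 lower) and 631 of 13056 without RAC3 replicate 2. The members' median was 0.056 with library size alone, which moved the median of all genes to 0.060 as well. It was -0.023 with no filter (all genes 0.0040), -0.017 with the GC trend removed (all genes 0.0025) and -0.038 to 0.023 when leaving out 1 sample. In the reported fit the changes that reversed lay between -0.15 (ADAM15) and 0.088 (ADAM9). With the GC trend removed ADAM15 was at 0.043, ADAM17 at -0.043, ADAM9 at -0.088, ADAMTS3 at -0.10, TIMP2 at 0.033 and TIMP4 at 0.027, and with library size alone TIMP2 was at 0.051 and TIMP4 at 0.018. Leaving out 1 sample gave -0.068 to 0.14 for ADAM23, -0.069 to 0.11 for ADAMTS3, -0.041 to 0.020 for TIMP2 and -0.127 to 0.033 for TIMP4. The cause was not tested.

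With the replicate number as a block, 4 members passed the study's threshold and 9 the adjusted one (ADAM10 did not). Over all genes 615 passed the study's threshold and 3261 the adjusted one, against 605 and 3691 without the block. The pairing was checked over 11221 genes: samples of the same number correlated at -0.086, -0.045 and -0.019 after removal of the group means, so the replicate numbers showed no pairing.

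Over all genes the adjusted calls were 2616 with the GC trend removed and 2630 to 3311 when leaving out 1 sample. Depth limited members with few counts: for the 8 tested members with a mean under 50 counts the SE was 0.272 to 0.458, and the 36 members not tested gave no comparison. Whether samples came from separate cultures was not stated.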
